A study of Ovis aries with 6 samples.

Results

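Chemokines, interleukins and their receptors were followed in the perirenal fat depot, which surrounds the kidney, in Merino sheep. The genes were taken by name alone: of 24390 genes in the full table, 113 have a symbol that begins with CCL, CXCL, CCR, CXCR or IL and continues with a digit. Symbols written with a hyphen in the table (IL-4, IL-12, IL-12A, IL-17 and IL-22) fall outside that rule and were not analysed here. RNA sequencing covered 3 fetuses at 132 days post conception (term is at 150 days) and 3 lambs, all wild type and, per the labels, without treatment. The lamb age is given as 89 days (with a spread of 7 days), as 80 days after birth and as 12 weeks. The letters VEH stand in the lamb titles without an explanation in the sources used here. Each library came from 1 animal, so n = 3 per stage throughout. Fetuses came from ewes euthanased in late pregnancy and lambs had been born at term and kept with their mothers until weaning, so stage goes together with birth, suckling and age.

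Chemokines are small secreted proteins that guide leukocytes along gradients by binding G protein-coupled receptors on the moving cell. They are named CC or CXC after the spacing of their first cysteines, and most receptors bind several ligands. Interleukins are secreted signals between leukocytes and other cells, and their receptors are built from a binding chain and a shared signalling chain, mostly coupled to JAK kinases and STAT factors or, for the IL-1 and IL-17 families, to adaptors that activate NF-kappa B. In adipose tissue they are known from the traffic of macrophages and lymphocytes, and adipocytes, stromal cells and endothelium also make some of them. The files hold whole tissue, so fewer cells of a type and less RNA per cell cannot be told apart in any value given here.

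Of the 113 genes, 12 had 0 counts in all 6 libraries, 101 had at least 1 count and 51 had enough counts to be tested. Genes that pass that filter through 1 stage only had to differ, so counts over the 51 are descriptions. In the comparison of lambs with fetuses by edgeR's quasi-likelihood test, 21 of the 51 were higher in lambs, 3 were lower and 27 did not pass at an adjusted p of 0.05. Across all 13624 genes tested, 44.7% passed, 22.0% as higher and 22.7% as lower. The share of these genes that passed, 47.1%, was near that background. By direction, 41.2% of the 51 were higher and 5.88% lower, and the median log2 difference (lamb minus fetal) was 0.78, beside -0.01 over all genes. All 3 lamb values lay above all 3 fetal values for 22 of the 51 genes and below them for 6, beside 28.2% and 29.5% of all genes tested, or 57.7% in either direction. Among the called genes the stages overlapped only for IL2RG and IL17RA.

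**Figure D1:**
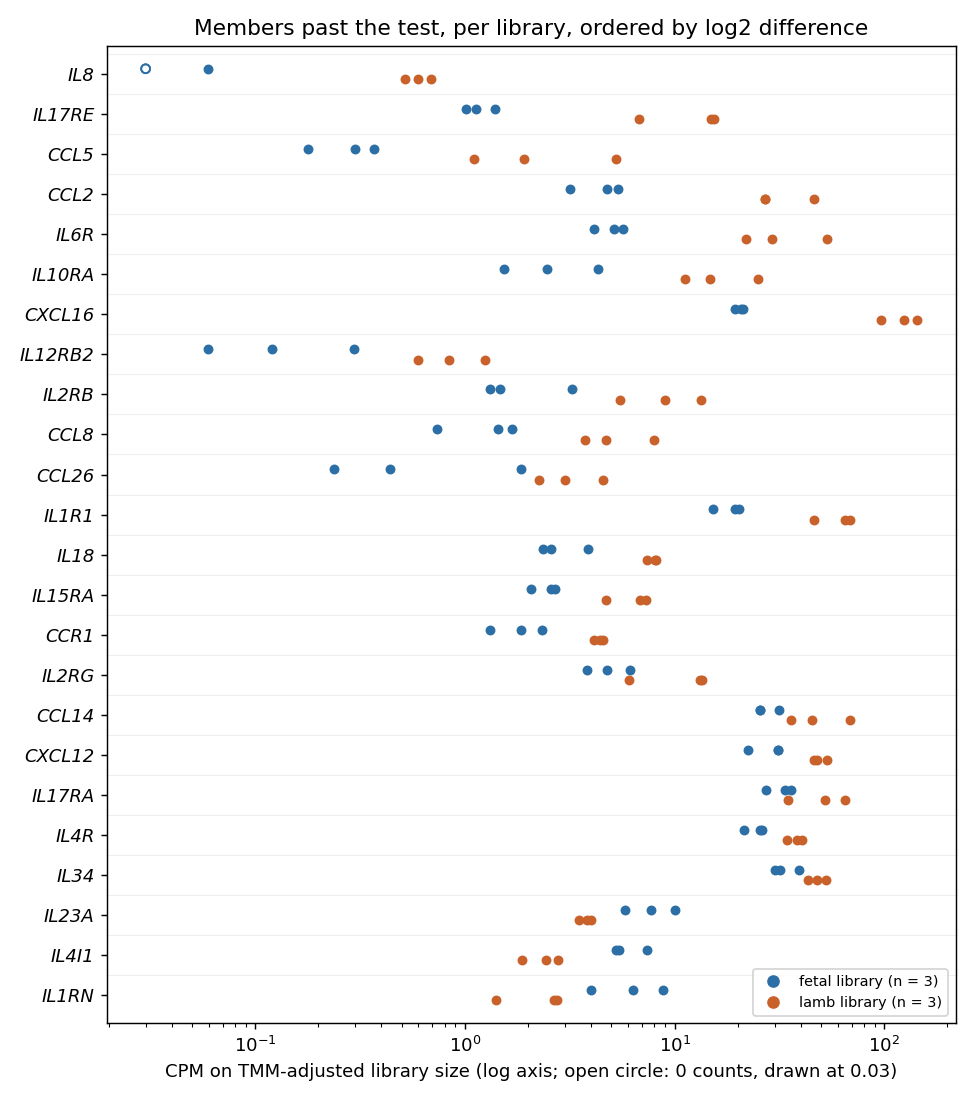
CPM (counts scaled to each library's size, with TMM factors, log axis) in each of the 3 fetal and 3 lamb libraries for the 24 genes that passed the test, ordered by log2 difference. The 3 genes at the bottom, IL23A, IL4I1 and IL1RN, are the ones lower in lambs, and 2 fetal libraries held 0 counts of IL8.

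Levels below are CPM, scaled to library totals of 15907128 to 19150428 with TMM factors between 0.723 and 1.21, and are not per gene length. With scaling by library totals alone the median log2 difference of all genes moved up by 0.47, and 32 of the 51 genes were then higher and 2 lower. In that setting 79.3% of the calls over all genes were higher in lambs, against 49.3% with TMM. For these genes the share of higher calls was 94.1% and 87.5%. Per length, the highest values in the authors' deposited table were mean RPKM values of 121 for CCL14, 77.5 for CXCL12 and 74.04 for IL13RA1 in fetuses. In lambs the authors' deposited table has CXCL12 highest at 195, then CCL14 at 170 and IL13RA1 at 150.2.

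Among the CC chemokine ligands, CCL2, CCL8, CCL14, CCL5 and CCL26 rose, with CCL5 and CCL26 reaching the count filter through the lamb libraries. CCL8 had 28, 10 and 24 fetal counts. Fetal library 2 fell just short of the filter, so CCL8 also reached it through the lamb libraries. Of 17 genes 9 were tested, 5 were higher in lambs, 0 were lower and 4 did not pass. Over all genes tested 22.0% were higher. The summed level of the 17 genes was 50.7 to 58.3 CPM in the fetal and 121 to 134 CPM in the lamb libraries. CCL2, also called MCP-1, the main attractant of monocytes (ENSOARG00000009627, chromosome 11, 15505826 to 15507249 on Oar v3.1), was at 5.38, 3.16 and 4.77 CPM in the fetal and at 27.1, 26.9 and 46.2 CPM in the lamb libraries. The lowest lamb value was well above the highest fetal one. The log2 difference was 2.90 ± 0.29 (SE; adjusted p = 2.70e-04), a 7.47-fold rise. CCL8, a related ligand of monocytes and other leukocytes, lies on the same chromosome at 15401076 to 15402616. It went from 1.67, 0.736 and 1.43 CPM to 4.69, 7.94 and 3.75 CPM, a log2 difference of 2.07 ± 0.40 (adjusted p = 0.00494). CCL1, 20711 bases from CCL8, did not follow, with 0.836 ± 0.158 CPM (SD) before and 0.638 ± 0.353 CPM after birth (adjusted p = 0.565).

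CCL5, or RANTES, an attractant of T cells and monocytes that T and NK cells make themselves (chromosome 11, 14111331 to 14117595), was low before birth at 0.179, 0.368 and 0.298 CPM and reached the count filter through the lamb libraries alone. In lambs it stood at 5.24, 1.92 and 1.10 CPM, so the stages did not overlap but lamb library 1 held most of the signal. The log2 difference was 3.28 ± 0.70 (adjusted p = 0.00700), and it was 2.41 with lamb library 1 left out (adjusted p = 0.0121). With 3, 5 and 5 fetal counts of CCL5, a difference was fixed by the filter in both fits. Markers of T and NK cells had the same order among the lambs: the 13 listed genes in the table summed to 50.7, 28.5 and 10.2 CPM in the lamb and to 12.2 to 18.8 CPM in the fetal libraries. Of the 9 tested, 2 were higher (PRF1 and CD2), beside 22.0% over all genes tested, 7 did not pass, and none was at 0 throughout. The order was not particular to T and NK cells. Lamb libraries 1, 2 and 3 summed to 260.7, 251.2 and 163 CPM for general leukocyte markers. The sums were 1659, 1533 and 1327 CPM for macrophages and 23.5, 8.72 and 5.80 CPM for B and plasma cells. The part of any of these lists in the CCL5 value was not tested.

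CCL14, a ligand of CCR1 that circulates in plasma (chromosome 11, 14061328 to 14065335), was among the more abundant ligands at both stages. It was at 25.6, 31.6 and 25.5 CPM in fetuses and at 68.6, 35.9 and 45.2 CPM in lambs, without overlap. The log2 difference of 0.85 ± 0.24 (adjusted p = 0.0207) did not pass without fetal library 1 (adjusted p = 0.0662) or fetal library 3 (adjusted p = 0.067). In the authors' deposited table the ratio of mean RPKM was 1.41, whereas counts per library total gave 2.53. CCL16, which lies 3434 bases from CCL14, had fetal values of 0.837, 0.221 and 0 CPM and lamb values of 3.06, 0.986 and 0.300 CPM, with no call (log2 difference 2.00 ± 1.09, adjusted p = 0.171). Its difference was 0.83 without lamb library 1 and 3.75 without fetal library 1.

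CCL26 and CCL24, both eotaxins that act on CCR3 of eosinophils, are neighbours on chromosome 24. CCL26 (33953102 to 33957135) went from 1.85, 0.441 and 0.239 CPM to 3.01, 4.57 and 2.25 CPM, a log2 difference of 1.93 ± 0.67 (adjusted p = 0.0476). With 31, 6 and 4 fetal counts, it reached the count filter through the lamb libraries, so the filter favoured a difference. Leaving out fetal library 2 or 3 ended that call (adjusted p = 0.137 and 0.101), as did leaving out lamb library 1, 2 or 3 (0.0897, 0.132 and 0.0552). Without fetal library 1 the difference was 3.26. CCL24 was at 2.30 ± 0.736 CPM before and 3.98 ± 0.437 CPM after birth. Its lamb values were all above its fetal ones, but the test was not passed (log2 difference 0.78 ± 0.29, adjusted p = 0.0638). CCL24 did pass with DESeq2's Wald test (0.79, adjusted p = 0.0489) and under library totals (1.22, adjusted p = 0.0175). CCL21, which lymphatic vessels make to draw in CCR7-bearing cells, was at 17.0, 10.2 and 14.1 CPM in fetuses and at 12.9, 49.6 and 16.2 CPM in lambs. Lamb library 2 alone was high, and the log2 difference of 0.92 ± 0.49 (adjusted p = 0.164) was 0.08 without it. In that library the 5 markers of lymphatic endothelium also summed highest, at 150.1 CPM, against 77.4 and 90.8 CPM in the other lamb libraries and 41.3 to 66.9 CPM in the fetal ones. None of the 5 was at 0 throughout, 1 (LYVE1) was higher and 4 did not pass, and their part in the CCL21 values was not tested. The peak was not particular to that list: markers of pericytes and smooth muscle (1252 CPM) and of mesothelium (14.7 CPM) also summed highest in lamb library 2.

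Among the CXC ligands, CXCL16 and CXCL12 rose. Of 7 such genes 3 were tested, and the third, IL8, reached the count filter through the lamb libraries alone. CXCL16, a membrane-bound chemokine that is also a scavenger receptor for oxidised lipoprotein (ENSOARG00000007683, chromosome 11, 26236849 to 26244808), had the smallest adjusted p of all 51 genes. Its level was 20.8, 21.1 and 19.4 CPM in fetuses and 96.5, 143 and 124 CPM in lambs. The fetal values were close together and every lamb value was far above them, with a log2 difference of 2.57 ± 0.17 (adjusted p = 6.54e-05), a 5.93-fold rise. The gene overlaps MED11 in the table, which held 185 counts in all, and strand was not stated.

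CXCL12, the stromal ligand that holds CXCR4-bearing progenitors in place (chromosome 25, 44535990 to 44543183), was at 31.0, 31.0 and 22.4 CPM in fetuses and at 47.8, 53.6 and 46.4 CPM in lambs. It rose by 0.81 ± 0.15 on the log2 scale (adjusted p = 0.00422), with no overlap. IL8, the sheep entry for CXCL8, which attracts neutrophils (chromosome 6, 88474889 to 88477180), stayed scarce. The fetal counts were 0, 0 and 1 and the lamb counts 14, 10 and 12, or 0.692, 0.519 and 0.600 CPM. The ratio of the summed counts was 28.5, with a 95% interval from 4.79 to 1156 that covers counting error only. The fitted log2 difference of 4.44 ± 0.79 (adjusted p = 0.00337) rests on that 1 fetal count and was 6.46 without fetal library 3. Neutrophil markers went the other way, with 4 of 5 tested lower and 0 higher in lambs, among them S100A8 at -3.42 ± 0.54. Over all genes tested 22.7% were lower. The 6 in the table summed to 11.5 to 40.5 CPM in the fetal and 1.80 to 5.40 CPM in the lamb libraries, with none at 0 throughout.

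Immediate early genes, which respond fast to stress and tissue handling, were also higher in lambs. Of 8 tested 7 passed as higher, beside 22.0% over all genes tested, and their median log2 difference was 2.31. Their sum was 196.6 to 286 CPM in the fetal and 872.5 to 1180 CPM in the lamb libraries. ATF3 stood at 3.67 ± 0.266 CPM before and 72.1 ± 20.8 CPM after birth. None of the list was at 0, and its part in the chemokine values was not tested.

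Among chemokine receptors CCR1 rose. Of 14 such genes, 6 were tested, 1 was higher in lambs and 5 did not pass, beside 22.0% higher over all genes tested. CCR1, the receptor of CCL5, CCL14 and CCL8 on monocytes (chromosome 19, 53152436 to 53153503), was at 1.85, 1.32 and 2.33 CPM in fetuses and 4.40, 4.57 and 4.15 CPM in lambs. The lamb values were close together and all above the fetal ones (log2 difference 1.24 ± 0.27, adjusted p = 0.00726). CCR2, the receptor of CCL2, was at 2.69, 0.662 and 0.716 CPM in fetuses and 2.03, 1.97 and 1.05 CPM in lambs. Fetal library 1 was the highest of all 6, the stages overlapped, and the log2 difference of 0.30 ± 0.58 (adjusted p = 0.706) was 1.27 without that library.

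CXCR4, the receptor of CXCL12, was the most counted of the chemokine receptors, at 8.91, 6.84 and 10.6 CPM in fetuses and 8.15, 10.2 and 4.95 CPM in lambs. The stages overlapped, and the log2 difference of -0.18 ± 0.29 (adjusted p = 0.631) was 0.06 when lamb library 3 was left out and 0.27 under scaling by library totals. CXCR6, the receptor of CXCL16, had 0 counts in every library, which allows up to 0.148 to 0.221 CPM per library, and its locus overlaps FYCO1. CCR7, the receptor of CCL21 and CCL19, was at 0.774 ± 0.366 CPM before and 0.604 ± 0.345 CPM after birth (adjusted p = 0.625). CCR6, which binds CCL20, was at 0.339 ± 0.329 and 0.570 ± 0.0642 CPM (adjusted p = 0.487).

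**Figure D2:**
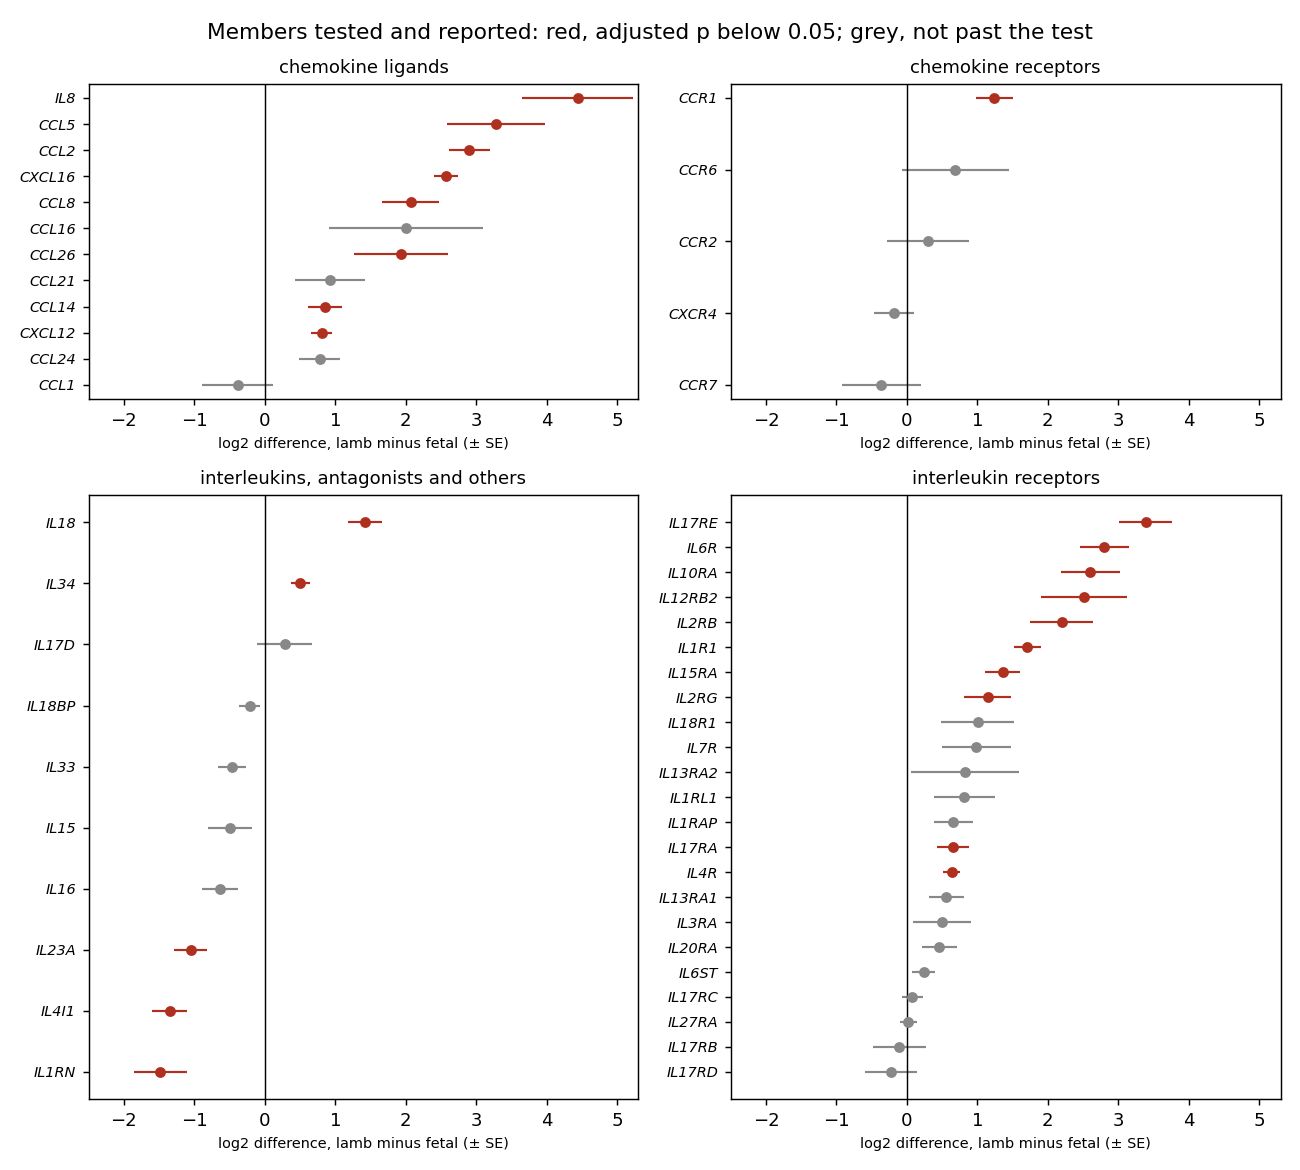
Log2 difference, lamb minus fetal, ± SE from edgeR for the tested genes reported here, in 4 groups by role, with genes past the test in red. Chemokine ligands and interleukin receptors hold 8 and 10 higher calls among 12 and 23 tested, beside 22.0% higher over all genes tested. Of these calls, IL8, CCL5, CCL26 and IL12RB2 reached the count filter through the lamb libraries, which fixed or favoured a difference. CCL8 narrowly did so too. The 3 lower calls stand with the interleukins, antagonists and others.

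In the IL-1 family a receptor and IL18 rose while the antagonist fell. IL1R1, the signalling receptor of IL-1 alpha and beta (ENSOARG00000013144, chromosome 3, 99472045 to 99509159), was at 19.4, 20.4 and 15.3 CPM in fetuses and at 46.2, 69.1 and 64.8 CPM in lambs. The stages were well apart (log2 difference 1.71 ± 0.19, adjusted p = 3.99e-04). IL1RN, the secreted antagonist that blocks this receptor (chromosome 3, 59709089 to 59714722), was at 4.01, 8.83 and 6.33 CPM in fetuses and 2.67, 2.75 and 1.40 CPM in lambs. It fell by 1.48 ± 0.37 on the log2 scale (adjusted p = 0.0147), and without fetal library 2, the highest, the difference was -1.18 (adjusted p = 0.0587). The ligand genes themselves were near the floor: IL1B had 2, 4 and 4 counts in fetal and 8, 6 and 2 counts in lamb libraries, and IL1A had 1, 0 and 1 against 1, 1 and 0. The accessory chain IL1RAP was at 2.23 ± 0.713 and 3.53 ± 0.214 CPM, with lamb values above fetal ones but no call (log2 difference 0.66 ± 0.28, adjusted p = 0.0925). It passed without fetal library 1 (0.95, adjusted p = 0.0376). The decoy receptor IL1R2 had 1 to 8 counts in fetal and 8 to 14 in lamb libraries and was not tested.

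Markers of epithelium and of neutrophils, cells that also make IL1RN, were higher in the fetal libraries. All 11 tested genes of the urothelium and epithelium list were lower in lambs, with sums of 62.4 to 216 CPM before birth and 0.550 to 1.09 CPM after it. UPK3A and EPCAM were at 0 in all lamb libraries. Fetal library 1 was the highest in that list and the lowest of the fetal libraries in IL1RN. In the neutrophil list fetal libraries 1, 2 and 3 summed to 21.7, 11.48 and 40.46 CPM. Library 2, the lowest there, was the highest in IL1RN. The part of epithelium and neutrophil markers in the IL1RN value was not tested.

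IL18, which drives interferon gamma production (chromosome 15, 21907722 to 21916813), was at 3.89, 2.35 and 2.57 CPM in fetuses and 8.20, 7.42 and 8.10 CPM in lambs. It rose by 1.42 ± 0.24 on the log2 scale (adjusted p = 0.00241), without overlap. Its soluble inhibitor IL18BP was at 8.37, 9.05 and 8.30 CPM and at 7.56, 7.27 and 7.30 CPM. All lamb values of IL18BP were below the fetal ones, but the log2 difference was -0.22 ± 0.15 (adjusted p = 0.259) and 0.26 with scaling by library totals. IL18BP overlaps RNF121 in the table, which held 8847 counts. Of the IL-18 receptor chains, IL18R1 was at 1.48 ± 0.871 and 2.98 ± 1.44 CPM (log2 difference 1.00 ± 0.52, adjusted p = 0.153). IL18RAP, 14152 bases away, had 4, 2 and 2 counts in fetal and 13, 15 and 8 in lamb libraries and did not reach the filter. With all genes of at least 1 count kept, IL18RAP was at 1.81 ± 0.59 with adjusted p = 0.0431.

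IL33, an alarmin held in the nuclei of stromal and endothelial cells, was the most counted ligand gene of the family at 76.0, 74.4 and 70.6 CPM in fetuses and 69.2, 39.1 and 51.8 CPM in lambs. All lamb values were below all fetal ones, though lamb library 1 was close, and the log2 difference was -0.46 ± 0.20 (adjusted p = 0.0907). Without lamb library 1 it was -0.69 and passed (adjusted p = 0.0139), and with scaling by library totals it was 0.01. Its receptor gene IL1RL1, or ST2, was at 5.26, 1.84 and 3.94 CPM and at 3.90, 9.29 and 6.35 CPM, with overlap (log2 difference 0.81 ± 0.43, adjusted p = 0.163). IL18RAP, IL18R1, IL1RL1, IL1RL2 and IL1R1 follow each other on chromosome 3, with 1 other gene between IL1R1 and IL1R2. Among these genes IL1R1 had the call with TMM scaling and the standard filter.

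**Figure D3:**
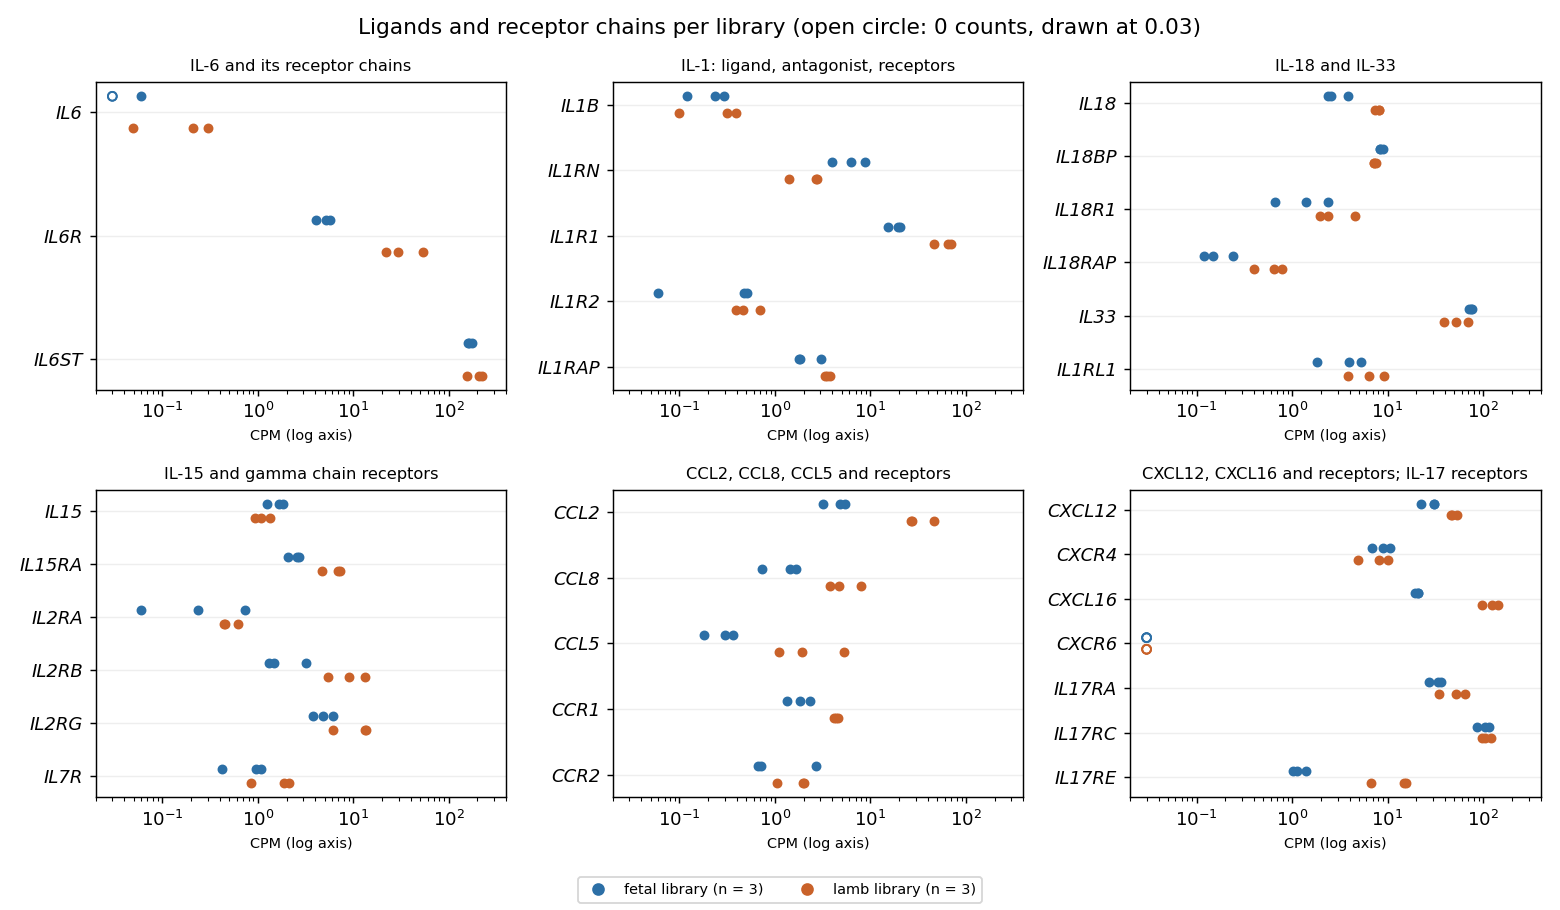
CPM per library (log axis) of ligands and their receptor chains in 6 sets, 3 fetal and 3 lamb libraries each. IL6R and IL1R1 separate by stage while IL6ST overlaps, and CXCR6 is at 0 counts in all 6 libraries.

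For IL-6 the binding chain rose and the shared chain did not pass the test. IL6R, the chain that gives a cell its response to IL-6 (ENSOARG00000002562, chromosome 1, 103219920 to 103271163), was at 5.68, 4.12 and 5.13 CPM in fetuses and at 53.4, 21.9 and 29.2 CPM in lambs. Every lamb value was above every fetal one, and the log2 difference was 2.80 ± 0.34 (adjusted p = 6.41e-04), a 6.97-fold rise. IL6ST, or gp130, the signalling chain used by the whole IL-6 family (chromosome 16, 23267860 to 23310859), was the most counted of all 113 genes. It was at 176, 159 and 163 CPM in fetuses and at 209, 154 and 223 CPM in lambs, with overlap (log2 difference 0.24 ± 0.16, adjusted p = 0.266). With scaling by library totals IL6ST was at 0.70 with adjusted p = 0.0131. IL6 itself had 1, 0 and 0 counts in fetal and 1, 4 and 6 counts in lamb libraries. The ratio of these sums was 8.70, with a 95% counting interval from 1.26 to 374.5. IL11, another ligand of gp130 receptors, had 6 counts before and 1 after birth.

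In the related IL-12 family the ligand subunit IL23A fell. IL12RB2, the chain through which T and NK cells answer IL-12, went from 0.120, 0.294 and 0.0597 CPM to 0.840, 1.25 and 0.600 CPM, a log2 difference of 2.51 ± 0.61 (adjusted p = 0.0121). It reached the count filter through the lamb libraries alone, with 2, 4 and 1 fetal counts, so that a difference was fixed by the filter. In the authors' deposited table its mean RPKM ratio was 2.12, while counts per library total gave 8.53. Its partner IL12RB1 had 4, 3 and 1 counts in fetal and 32, 23 and 4 in lamb libraries. Kept without the filter, IL12RB1 was at 2.50 ± 0.84 with adjusted p = 0.0496, and it overlaps IFI30. IL23A, the subunit particular to IL-23 (chromosome 3, 162937547 to 162939092), was at 7.71, 10.0 and 5.79 CPM in fetuses and 3.80, 3.996 and 3.50 CPM in lambs. It fell by 1.05 ± 0.24 on the log2 scale (adjusted p = 0.00922), without overlap, but with scaling by library totals it was at -0.55 and did not pass (adjusted p = 0.0887). The ratio of mean RPKM for IL23A in the authors' deposited table was 0.935, lamb over fetal, while counts per library total gave 0.685. The receptor chain IL23R held 2 counts before and 4 after birth. IL27RA, which pairs with gp130 for IL-27, was at 34.5 ± 2.60 CPM and 35.0 ± 3.82 CPM (log2 difference 0.02 ± 0.12, adjusted p = 0.896). Under scaling by library totals IL27RA passed, at 0.49 with adjusted p = 0.0483.

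Of 6 receptors of the common gamma chain family 4 were tested and 3 of these were higher in lambs, while the cytokines were scarce. Over all genes tested 22.0% were higher. IL2RB, the beta chain that answers IL-2 and IL-15 on NK and T cells (chromosome 3, 180361987 to 180373738), was at 3.23, 1.47 and 1.31 CPM in fetuses and at 13.3, 8.98 and 5.50 CPM in lambs. The stages did not overlap (log2 difference 2.20 ± 0.45, adjusted p = 0.00576), and lamb library 1 was the highest and library 3 the lowest. The sums of T and NK cell, B and plasma cell, macrophage and general leukocyte markers had that order too. The part of these cells was not tested. IL15RA, which presents IL-15 to neighbouring cells (chromosome 13, 10429562 to 10448119), was at 2.69, 2.06 and 2.57 CPM and at 6.87, 7.32 and 4.70 CPM (log2 difference 1.36 ± 0.25, adjusted p = 0.00382). IL2RG, the common gamma chain, was at 6.16, 3.83 and 4.77 CPM and at 13.2, 13.5 and 6.10 CPM, with lamb library 3 inside the fetal range. Its log2 difference of 1.15 ± 0.33 (adjusted p = 0.0258) did not pass on leaving out fetal library 2 or 3 (adjusted p = 0.0873 and 0.0705) or lamb library 1 or 2 (0.0809 and 0.0775).

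IL15 itself, a survival signal for NK and memory T cells, was at 1.67, 1.84 and 1.25 CPM in fetuses and 0.939, 1.09 and 1.35 CPM in lambs, with overlap. The log2 difference of IL15 was -0.49 ± 0.31 (adjusted p = 0.238). IL7R was at 0.817 ± 0.351 and 1.61 ± 0.674 CPM (adjusted p = 0.139), and its ligand IL7 had 3 counts before and 16 after birth. IL2, IL9 and IL21, products of activated lymphocytes, had 0 counts in all libraries. IL2RA, the high-affinity chain for IL-2, had 1, 10 and 4 counts in fetal and 9, 12 and 9 in lamb libraries. IL21R had 15, 7 and 6 counts in fetal and 22, 5 and 0 in lamb libraries, and neither receptor was tested.

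IL10RA, the binding chain for the anti-inflammatory IL-10 on leukocytes (ENSOARG00000007625, chromosome 15, 28155376 to 28166969), was at 2.45, 1.54 and 4.30 CPM in fetuses and at 14.8, 25.0 and 11.2 CPM in lambs. It rose by 2.60 ± 0.42 on the log2 scale (adjusted p = 0.00221), a 6.08-fold rise without overlap. IL10 had 3, 2 and 3 counts in fetal libraries and 16, 3 and 4 in lamb libraries. IL20RA, a chain of receptors for IL-19, IL-20 and IL-24, was at 35.0 ± 9.53 and 48.2 ± 11.2 CPM (log2 difference 0.46 ± 0.24, adjusted p = 0.157). Its partner IL20RB held 1 and 4 counts, and of the ligands IL20 had 0 counts, IL24 had 2 and 1, and IL19 had 2 and 14. IL22RA1, an epithelial receptor chain, was present in fetal library 1 only, with 34 counts there, 0 in the other 2 fetal libraries and 1 in lamb library 1. Fetal library 1 was also the library with the highest sum of urothelium and epithelium markers, 216 CPM. Fetal libraries 2 and 3 had sums of 84.97 and 62.43 CPM. The part of these markers in the IL22RA1 counts was not tested.

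IL4R, the chain shared by receptors for IL-4 and IL-13 (chromosome 24, 24897923 to 24921149), was at 25.5, 21.5 and 26.0 CPM in fetuses and at 40.8, 38.2 and 34.2 CPM in lambs. The rise was small but clear of the fetal values (log2 difference 0.63 ± 0.13, adjusted p = 0.00525). IL13RA1, its partner for IL-13, was at 108, 82.0 and 87.1 CPM and at 112, 105 and 192 CPM, with lamb library 3 apart from the other 2. It did not pass (log2 difference 0.56 ± 0.25, adjusted p = 0.101), and without lamb library 3 it was at 0.23. IL13RA2, the decoy for IL-13, was at 0.383 ± 0.402 and 0.705 ± 0.433 CPM (adjusted p = 0.411). IL13 had 3 counts before and 2 after birth, and IL3 and IL5 had 0. IL3RA, the binding chain for IL-3, was at 2.34 ± 0.577 and 3.30 ± 1.48 CPM (adjusted p = 0.353).

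Of 6 receptor genes of the IL-17 family 5 were tested, and IL17RE and IL17RA rose, beside 22.0% higher over all genes tested. IL17RE, the chain for IL-17C (ENSOARG00000005670, chromosome 19, 16743392 to 16753272), was at 1.02, 1.40 and 1.13 CPM in fetuses and at 15.5, 6.75 and 14.8 CPM in lambs. It rose 10.4-fold, with a log2 difference of 3.39 ± 0.37 (adjusted p = 3.99e-04), and lamb library 2 was the lowest of the lambs. IL17RC, the next gene at a distance of 1445 bases and a chain for IL-17A and IL-17F, was at 105, 115 and 86.1 CPM and at 104, 97.2 and 120.2 CPM. Those stages overlapped, with a log2 difference of 0.07 ± 0.15 (adjusted p = 0.713), and 0.56 (adjusted p = 0.0145) with scaling by library totals. IL17RA, the chain common to IL-17 receptors, was at 27.4, 33.5 and 35.9 CPM and at 34.9, 52.2 and 64.8 CPM. Its log2 difference of 0.65 ± 0.23 (adjusted p = 0.0488) was just past the threshold, and lamb library 1 lay inside the fetal range. Without lamb library 1 the adjusted p was 0.00857. Leaving out fetal library 1, 2 or 3 or lamb library 2 or 3 ended the call, with adjusted p of 0.145, 0.103, 0.0727, 0.104 and 0.136 in that order.

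IL17RB and IL17RD did not pass either, at 5.60 ± 3.20 and 5.22 ± 0.530 CPM for the first and 1.60 ± 0.592 and 1.37 ± 0.307 CPM for the second. The ligands matched by name were scarce: IL17C had 1 count and IL17F 3 counts in all libraries together, and IL17B had 8, 8 and 12 against 3, 8 and 3. IL17D, the one of these ligands with enough counts, was at 0.601 ± 0.210 and 0.740 ± 0.0442 CPM (adjusted p = 0.584).

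Among the remaining names, IL34, a second ligand of the macrophage growth factor receptor CSF1R (chromosome 14, 895850 to 910672), was at 31.9, 39.1 and 30.2 CPM in fetuses and 52.6, 47.7 and 43.1 CPM in lambs. The stages did not overlap and the log2 difference was 0.50 ± 0.14 (adjusted p = 0.0199). Leaving out fetal library 1 or 3 or lamb library 1 ended the IL34 call (adjusted p = 0.0765, 0.0856 and 0.0554). IL4I1, a secreted amino acid oxidase induced by IL-4 and no interleukin itself (chromosome 14, 55264896 to 55273197), was at 7.41, 5.44 and 5.25 CPM and at 2.77, 1.87 and 2.45 CPM. It fell by 1.35 ± 0.25 on the log2 scale (adjusted p = 0.00404), without overlap. IL16, an attractant of CD4+ cells cut from a larger precursor, was at 6.74 ± 0.579 and 4.33 ± 1.25 CPM, with all lamb values below all fetal ones. It did not pass (log2 difference -0.64 ± 0.25, adjusted p = 0.0744), except without lamb library 1 (-0.82, adjusted p = 0.0498).

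The 50 genes with counts but without a test reached at most 98 counts over the 6 libraries, the total of CXCL9. CXCL9, an interferon-induced attractant of T cells, had 8, 6 and 7 counts in fetal and 53, 18 and 6 in lamb libraries, and its receptor CXCR3 had 3, 4 and 3 against 21, 6 and 5. Lamb library 1 held the most of both. CCR8, a receptor of T cell subsets and of CCL1, had 6, 3 and 4 against 20, 20 and 9. CXCL13, an attractant of B cells, was found mainly before birth, with 5, 22 and 0 counts against 1, 0 and 0, and fetal library 2 held most of them. CCR3, the eotaxin receptor, had 10, 10 and 11 against 4, 5 and 3 counts. Kept without the filter, CCR3 was at -1.66 ± 0.52 with adjusted p = 0.0367. With IL18RAP and IL12RB1 it made up the 3 genes called there that were not tested with the standard filter. CCL22, an attractant made by dendritic cells and macrophages, had 0 counts in fetal and 1, 4 and 1 in lamb libraries, too few for a fold.

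Other genes of the chemokine system, from a list that leaves out the names above, included CX3CL1, RARRES2, C5AR1 and DARC as higher. Of 15 tested, 6 were higher, 2 lower and 7 did not pass, with a median log2 difference of 0.54. The shares over all genes tested were 22.0% higher and 22.7% lower. CX3CL1, or fractalkine, a membrane-bound chemokine, rose from 7.55 ± 1.31 to 41.1 ± 7.89 CPM (log2 difference 2.45 ± 0.20). RARRES2, the precursor of the adipokine and attractant chemerin, rose from 70.6 ± 9.04 to 251.8 ± 39.7 CPM (1.84 ± 0.17). C5AR1, the receptor of complement C5a, rose by 1.94 ± 0.36, and DARC (ACKR1), the chemokine receptor of venules and red cells, by 1.41 ± 0.34.

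Of 46 tested genes of interleukin signalling, 23 passed as higher in lambs and 5 as lower, while 18 had no call. Over all genes tested 22.0% were higher and 22.7% lower. The median log2 difference was 0.41. IRAK2, a kinase below IL-1 receptors, rose by 2.02 ± 0.40. TRAF3IP2, the adaptor Act1 of IL-17 receptors, rose from 3.64 ± 0.937 to 11.8 ± 1.64 CPM (1.69 ± 0.23). NFKBIZ, an NF-kappa B cofactor induced by IL-1 and IL-17, rose by 1.65 ± 0.25. CISH, a feedback inhibitor of STAT5 signalling, fell from 50.2 ± 9.10 to 10.8 ± 3.43 CPM (-2.22 ± 0.26). Of the 5 lower genes, CISH was the one with the largest change. STAT5A, SOCS2, PTPN6 and PIAS3 were the other four, named after their values were seen.

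Markers of macrophages and of leukocytes in general were higher in lambs too. Of 14 tested markers of macrophages and monocytes, 10 were higher in lambs, 0 were lower and 4 did not pass. For this and the lists below, 22.0% of all genes tested were higher and 22.7% lower. Their 15 genes in the table summed to 197.6 to 437.6 CPM in the fetal and 1327 to 1659 CPM in the lamb libraries, mainly through MRC1, the mannose receptor, at 57.6 ± 14.1 and 993 ± 163 CPM. CD14, a monocyte receptor for lipopolysaccharide, rose by 2.46 ± 0.19. Of 8 general leukocyte genes 5 passed as higher and 0 as lower, with sums of 101 to 149.9 and 163 to 260.7 CPM. PTPRC, or CD45, was at 19.1 ± 5.90 and 40.5 ± 16.3 CPM (log2 difference 1.08 ± 0.34, adjusted p = 0.0354). Of 4 tested dendritic cell markers 3 were higher, with sums of 14.1 to 14.3 and 30.7 to 38.6 CPM.

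Mast cell and eosinophil markers had 1 of 4 tested lower (KIT), with sums of 20.8 to 32.6 and 10.5 to 14.3 CPM. B and plasma cell markers had 1 of 3 higher (CD79A), and their sums of 7.04 to 7.65 and 5.80 to 23.5 CPM overlapped. Adipocyte markers, which define the tissue, were abundant in all libraries, with sums of 14260 to 17980 CPM before and 29120 to 40400 CPM after birth and 5 of 7 higher. Of the other lists, blood endothelium had 2 of 9 tested higher and 2 lower, and fibroblasts 2 of 9 higher and 0 lower. Pericytes and smooth muscle had 1 of 6 higher and 0 lower. The higher calls of these lists were near the 22.0% over all genes tested. Mesothelium had 1 of 2 lower and red cells 3 of 4 lower. None of the genes in these leukocyte and adipocyte lists was at 0 throughout. The median log2 difference was 1.38 over the 14 tested macrophage markers, with MRC1 at 4.11 ± 0.25, and 1.44 over the 7 adipocyte markers. The part of cell numbers in the chemokine and interleukin genes was not tested.

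**Figure D4:**
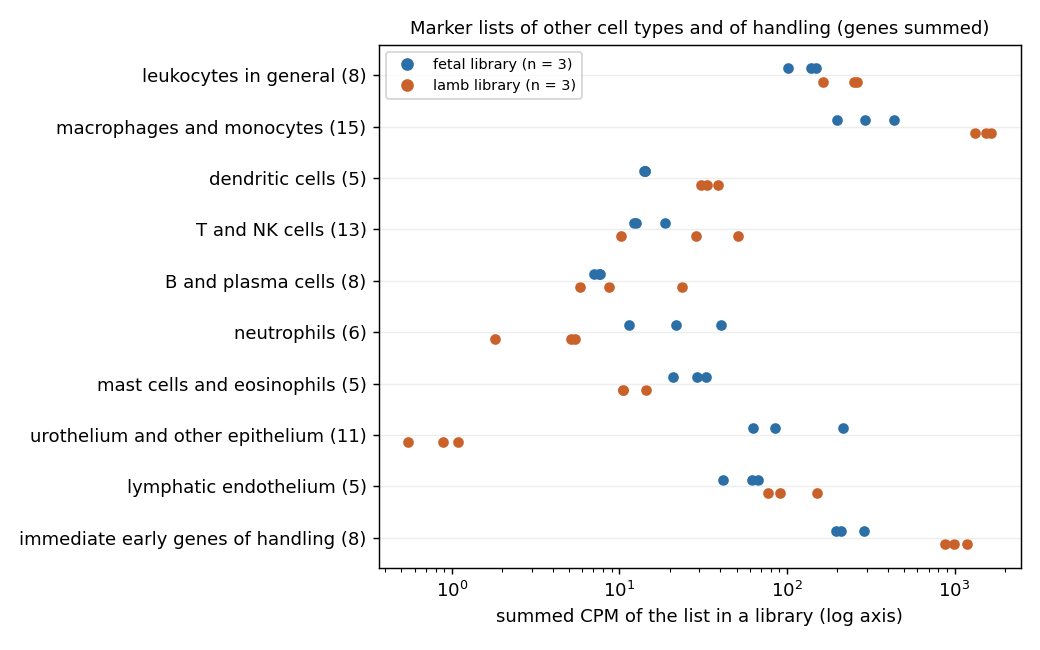
Summed CPM (log axis) of each marker list in the 3 fetal and 3 lamb libraries, with the number of genes summed in brackets. Macrophage, dendritic and immediate early genes are higher in all 3 lambs, T and NK cell sums overlap between the stages, and urothelium and epithelium genes are close to 0 in lambs.

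The authors' deposited table holds their own edgeR comparison. At an adjusted p of 0.05 it calls 27 of the 113 genes, of which 23 were also called here. The share it calls over all genes was not counted here, so these numbers describe the overlap of the calls only. The 4 called in the authors' deposited table alone were CCR3, CXCL13, IL12RB1 and IL18RAP, all below the count filter used here. IL34 was called here alone, with an adjusted p of 0.0637 in the authors' deposited table.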

How the data were processed

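The genes and lists were chosen with earlier results of these data known. Per the series' design text, the authors mapped single-end 50 bp reads to Ensembl gene models of Oar v3.1 (release 74) in CLC Genomics Workbench 7.0. The sources used here do not give strand or the treatment of reads with several placements. The deposited tables hold whole-number read counts per gene and library. They also hold RPKM as the authors' mean per stage, used for description only, and the adjusted p-value of the authors' own edgeR test. The 6 per-library RPKM columns of each table were not used. Positions are counted from 1 as in the full table, which pairs identifiers with symbols.

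The count test was run with edgeR 4.0.16 under R 4.3.3. Genes kept by filterByExpr (13624) were scaled by TMM and compared by stage alone with the quasi-likelihood F test and Benjamini-Hochberg adjustment over all genes tested and calls at 0.05. SE is the log2 difference divided by the root of F. A count of 0 allows 3 counts, and 95% intervals are exact binomial ones for counting error only. The test was checked on simulated counts. Any of the 113 genes could be named, except that 1 tested gene, kept in all counts, is not reported here. Values per library were given for called genes at 1 CPM or more in either stage and, whatever their result, for CXCL12, CXCR4, CCL2, IL8, IL6, IL6R, IL6ST, IL15, IL33, IL18, IL1B, IL1RN, IL1R1 and IL10RA, and for others chosen after their values were seen. Other genes were named from 2 pathway and 16 marker lists, up to 4 called ones per list. Alternatives used DESeq2 1.42.0 (size factors, Wald test), limma 3.58.1 (voom), library totals, 2 other filters, the prefiltered table's genes, each library left out and the replicate number as a block.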

Additional observations from a re-analysis of the deposited data

Results flagged for a closer look

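Of the 12 genes with 0 counts in every library, 9 have a mean RPKM above 0 in the authors' deposited table, a signal in columns that the comparisons do not use. In the authors' deposited table IL2 has 0.913 in fetuses and 1.04 in lambs, the highest of them. How these means were made for genes without counts was not stated.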

How the results depend on the processing

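The 24 called genes kept their direction in every one of the 14 alternatives that tested them, and 17 kept their call in all of these. Among the 17, CCL5, IL8 and IL12RB2 had a difference fixed by the filter. CCL14, CCL26, IL17RA, IL1RN, IL2RG and IL34 lost their call on leaving out 1 library, as given above, and IL23A with library totals. IL17RA was also lost with the filter at 5 CPM in 3 libraries (0.61, adjusted p = 0.0521) and both IL17RA and IL2RG with limma-voom (adjusted p = 0.0647 and 0.0568). Leaving out 1 library gave 16 to 23 of these genes higher and 2 to 5 lower (5 without lamb library 1), and over all genes 2286 to 2796 higher and 2512 to 2903 lower. Library totals alone gave 32 higher among these genes, and 5598 higher and 1459 lower over all genes, against 3002 and 3093 with TMM. The 11 calls gained there were CCL21, CCL24, IL13RA1, IL17RC, IL18R1, IL1RAP, IL1RL1, IL20RA, IL27RA, IL6ST and IL7R. The 5 CPM filter left 27 of these genes tested, of which 14 were higher and 1 lower. Over all 10328 genes tested with that filter 2580 were higher and 2594 lower. The filter tests fewer genes by construction.

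Signs turned only for genes that were not called. With library totals these were CCL1 (0.10), CCR7 (0.11), CXCR4 (0.27), IL17RB (0.37), IL17RD (0.22), IL18BP (0.26) and IL33 (0.0080). Leaving out 1 library gave ranges of -0.76 to 0.00069 for CCL1, -0.010 to 1.27 for CCR2, -0.83 to 0.10 for CCR7 and -0.42 to 0.06 for CXCR4. The ranges were -0.37 to 0.47 for IL17RB, -0.036 to 0.17 for IL17RC, -0.45 to 0.079 for IL17RD and -0.060 to 0.10 for IL27RA. IL27RA was at -0.015 with the 5 CPM filter, and IL17RB at 0.023 with limma-voom. The cause was not tested. The labels do not pair the animals by replicate number. Deviations of same-numbered libraries correlated at 0.00327, -0.116 and 0.046, and those of differently numbered ones at -0.14 to 0.14. With 3 libraries per stage these values cannot settle whether the numbers pair. With the replicate block 22 of these genes were higher and 3 lower, beside 2598 higher and 2755 lower of all 13624 genes tested. In that setting CCL16 passed (2.18, adjusted p = 0.0285), and IL17RB was at 0.021. The depth limits the 50 genes not tested, since 3 counts are 0.148 to 0.221 CPM.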
